A study of Mus musculus with 6 samples.

Results

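The 47 genes described here encode enzymes that add or remove methyl groups on histone lysines, together with closely related SET domain proteins. They were chosen by gene symbol from the 24411 genes in the files: the KDM, KMT, SETD, SETDB, EHMT, SUV39H and SMYD families with Nsd1, Whsc1, Whsc1l1, Ash1l and Dot1l. The rule uses no measured value, but it was set with earlier results of these data known. Of the 47, 44 passed the filter on low counts, against 12953 of all genes. Gene expression was measured by bulk RNA-seq in C57BL/6 mice that had received 3 injections of pIpC (20 mg/kg), a double-stranded RNA that switches on the Mx1 promoter, and whose marrow was taken 8 weeks later. Brd9 KO libraries (n = 3) came from CD45.2(+) mice carrying Mx1-Cre and both floxed alleles of Brd9 (Brd9fl/fl), in which Cre removes exons of Brd9 in blood cells and other interferon-responsive cells. Control libraries (n = 3) came from CD45.2(+) Brd9fl/fl mice without Cre, so loss of Brd9 and presence of Cre cannot be told apart. Brd9 is the bromodomain subunit of the non-canonical BAF chromatin remodeler. The question is whether its loss changes the transcript levels of the enzymes that write and erase histone methylation. The labels name lineage-negative marrow of transplant recipients treated 4 weeks after transplantation, the series design names primary mice treated at 4 weeks of age, and the study's text names sorted Lin-c-Kit+ cells of mice older than that schedule would make them at harvest.

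Histone lysine methylation is read as an instruction about the underlying DNA, and the instruction depends on the residue. H3K4 methylation marks promoters and enhancers, H3K36 methylation marks transcribed gene bodies, H3K9 methylation marks silent heterochromatin, and H3K27 methylation marks genes silenced by Polycomb. Writers carry a SET domain, except Dot1l, and use S-adenosylmethionine as the methyl donor. Erasers are the flavin-dependent KDM1 enzymes and the JmjC enzymes, which need alpha-ketoglutarate, iron and oxygen. In blood, Kmt2a maintains the Hox program of stem and progenitor cells and is the gene rearranged in MLL leukemias, Dot1l is required by those leukemias, and Kdm1a works with the repressors Gfi1 and Gfi1b in granulocytic and erythroid differentiation.

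Expected counts summed to between 21151031 and 25526248 in Brd9 KO libraries and to between 23915415 and 28500168 in control libraries. Brd9 itself had 15.6, 13.5 and 21.0 CPM (expected counts scaled to a common library size of 1e+06 with TMM factors) in Brd9 KO libraries, against 45.9, 49.1 and 52.1 CPM in control libraries. The groups did not overlap, 34.1% of the control level was left, and the log2 fold change was -1.56 ± 0.17 (SE, n = 3 each, adjusted p = 0.00343 by edgeR's quasi-likelihood test with Benjamini-Hochberg adjustment). An exact two-sided permutation test gave p = 0.1, the smallest that 3 against 3 libraries allow. The progenitor markers Kit (178 to 269 CPM in Brd9 KO libraries, 205 to 229 CPM in control libraries) and Cd34 (300.2 to 407 CPM in Brd9 KO libraries, 277 to 372 CPM in control libraries) were present throughout, while Hoxa9 and Mpo fell (log2 fold changes -1.07 and -0.98) and Gata2 rose (1.27). Markers of other cells moved with the groups: 7 of 9 stromal genes were higher (summed level 110 to 174 CPM in Brd9 KO libraries, 36.6 to 55.1 CPM in control libraries), as were 5 of 7 megakaryocyte genes (3115 to 4051 CPM in Brd9 KO libraries, 1265 to 2065 CPM in control libraries) and 6 of 7 eosinophil and mast cell genes (4216 to 7774 CPM in Brd9 KO libraries, 2011 to 2634 CPM in control libraries). In the eosinophil and mast cell list the other 1 gene was called lower. Of the other lists, 5 of 7 macrophage genes were called higher and 1 lower, 3 of 9 T and NK cell genes higher and 1 lower, 3 of 9 erythroid genes lower and 1 of 5 tested B cell genes lower. The summed T and NK cell level was nevertheless lower in Brd9 KO libraries (145 to 204 CPM, against 250 to 319 CPM in control libraries). Among 10 cell cycle genes the lowest adjusted p in edgeR was 0.107, for Pcna. Brd9 KO replicate 3 stood apart, with a summed neutrophil level of 7649 CPM, against 1168 and 1323 CPM in the other Brd9 KO libraries and 1696 to 3127 CPM in control libraries. In bulk libraries, fewer cells of a type and less RNA per cell cannot be told apart, and the part of these cell markers in the results below was not tested.

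Few members were called by edgeR, and those that were all rose, while DESeq2 called more. At an adjusted p under 0.1 in the quasi-likelihood test of edgeR, 3 of the 44 tested members were called (6.82%), against 15.4% of all genes tested. The called members were Kdm6b, Kmt2c and Nsd1, an eraser of H3K27 methylation, a writer of H3K4 methylation at enhancers and a writer of H3K36 methylation. All 3 were higher in Brd9 KO libraries, where the share called higher over all genes was 9.19%. None was called lower (6.25% over all genes), while 2 members were lower at an unadjusted p under 0.05 in edgeR. DESeq2, the study's tool, called 8 members. These were Kdm6b, Kmt2c, Nsd1, Kdm7a, Kmt2a, Kmt2d and Kmt2e, all higher, and Setd6, lower. Over all genes 54.0% of the calls of DESeq2 were higher. By limma-voom none was called lower. In all, 9 of 44 members had an unadjusted p under 0.05, 7 higher and 2 lower, beside 27.4% of all tested genes.

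Most members nevertheless lay above 0. The log2 fold change was above 0 for 31 of 44 and below 0 for 13, with a median of 0.23 beside a median of 0.02 over all tested genes. The groups did not overlap for 10 members (22.7%), 7 of them higher and 3 lower, against 33.5% of all tested genes (17.2% higher and 16.3% lower). Under scaling by library totals 37 of 44 were above 0, and on deposited TPM values 38 of 44, but these scalings moved the median of all genes to 0.10 and to between 0.18 and 0.22 as well. With transcript length entered as an offset, 21 of 44 were above 0 and 23 below, with a median of -0.01.

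**Figure D1:**
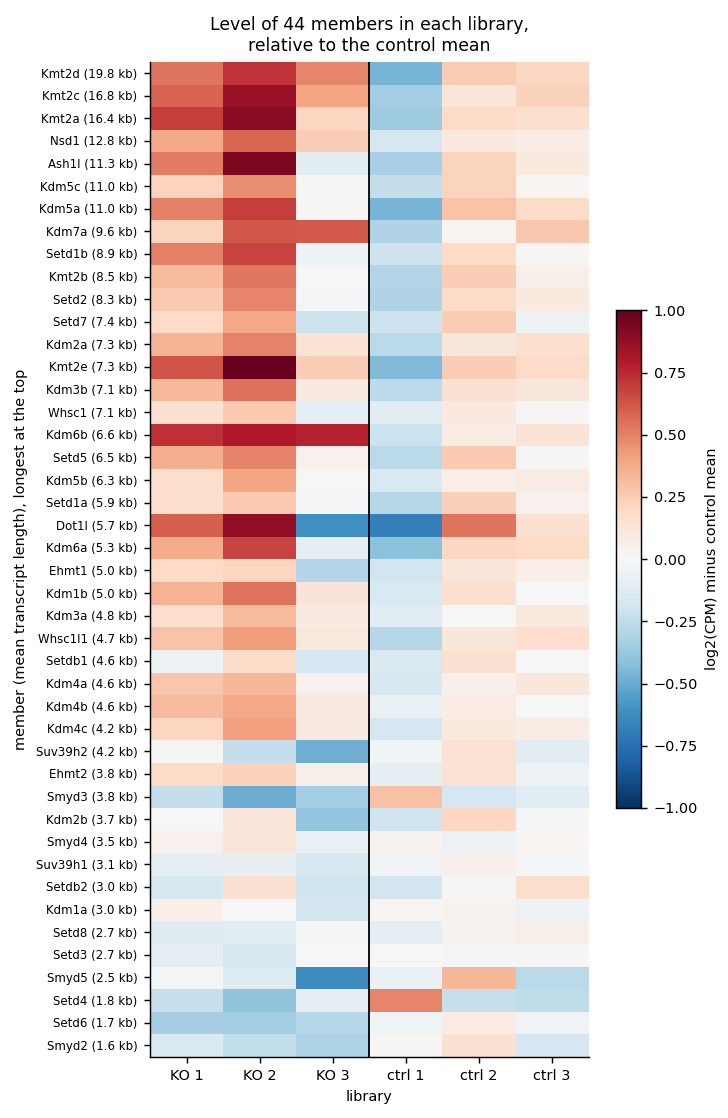
Level of each of the 44 tested members (rows, longest mean transcript at the top, in kilobases) in each library (columns, Brd9 KO libraries left of control libraries), as log2 CPM minus the mean of the control libraries. Red rows at the top in Brd9 KO replicates 1 and 2 are the long transcripts, which are paler in Brd9 KO replicate 3 and blue in control replicate 1.

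Kdm6b encodes JMJD3, the inducible demethylase of H3K27 that opposes Polycomb silencing and is known for its induction in stimulated macrophages. It had 41.0, 43.0 and 42.1 CPM in Brd9 KO libraries, against 21.3, 26.0 and 27.1 CPM in control libraries. The 3 Brd9 KO libraries lay within about 2 CPM of each other, Brd9 KO replicate 3 included, and all were above the control libraries. The log2 fold change was 0.76 ± 0.12 (SE, n = 3 each, adjusted p = 0.0114 by edgeR's quasi-likelihood test). In TPM, Kdm6b stood at 9.35, 10.7 and 7.82 in Brd9 KO libraries and at 3.54, 5.39 and 5.31 in control libraries. Summed macrophage genes were at 97.3, 120.0 and 146 CPM in Brd9 KO libraries and 91.6, 119 and 131 CPM in control libraries, with overlapping groups, but 5 of the 7 genes were called higher and the median log2 fold change of the list was 1.03. The part of these genes in the Kdm6b difference was not tested. Kdm6b was the single member called under each of 19 alternative settings, with log2 fold changes between 0.43 and 0.97. The gene lies at chr11:69398508-69413675 (mm10, minus strand) and overlaps Kdm6bos on the opposite strand, so that reads of the pair cannot be separated if the libraries were unstranded, as the labels say.

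Its relative Kdm6a (UTX) sits in enhancer complexes with either Kmt2c or Kmt2d. It was more abundant than Kdm6b in each library when levels were set per length. Kdm6a had 53.8, 66.6 and 39.2 CPM in Brd9 KO libraries, against 31.3, 48.1 and 47.8 CPM in control libraries. The groups overlapped through Brd9 KO replicate 3, and the log2 fold change was 0.33 ± 0.23 (adjusted p = 0.380 by edgeR). Kdm7a, an eraser of H3K9 and H3K27 methylation with a PHD finger, had 39.2, 51.7 and 51.5 CPM in Brd9 KO libraries and 27.3, 34.2 and 40.5 CPM in control libraries. Here Brd9 KO replicate 1 fell among the control libraries, and the log2 fold change of 0.48 ± 0.17 did not pass (adjusted p = 0.125 by edgeR).

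The H3K4 writers held the member with the second-smallest p, Kmt2c (MLL3), a catalytic subunit of the complex that places monomethylation on enhancers. It had 74.9, 91.3 and 65.9 CPM in Brd9 KO libraries, against 39.3, 54.5 and 58.6 CPM in control libraries, a log2 fold change of 0.61 ± 0.18 (SE, n = 3 each, adjusted p = 0.0798 by edgeR's quasi-likelihood test). The groups did not overlap, but Brd9 KO replicate 3 lay closest to the control libraries. Kmt2c was called under 9 of 19 alternatives, and leaving out any 1 library other than Brd9 KO replicate 3 gave an adjusted p between 0.113 and 0.226 by edgeR. It lies at chr5:25271798-25498783 (mm10, minus strand).

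The KMT2 genes just outside the threshold, singled out after their values were seen, showed the same pattern over libraries. Kmt2a (MLL1) had 86.5, 100.1 and 62.2 CPM in Brd9 KO libraries, against 41.8, 61.3 and 59.9 CPM in control libraries (log2 fold change 0.61 ± 0.21, adjusted p = 0.109 by edgeR). Kmt2d (MLL4), a paralog of Kmt2c that also acts at enhancers, had 138, 157 and 133 CPM in Brd9 KO libraries, against 69.0, 113 and 110.0 CPM in control libraries (0.55 ± 0.19, adjusted p = 0.113). Kmt2e (MLL5), which has a SET domain with no settled activity and is needed for stem cell fitness in mice, had 83.9, 115 and 64.5 CPM in Brd9 KO libraries, against 40.0, 64.3 and 62.2 CPM in control libraries (0.66 ± 0.24, adjusted p = 0.132). In each of these genes the groups did not overlap, control replicate 1 was the lowest library, and Brd9 KO replicate 3 was the lowest Brd9 KO library, within 1 CPM of control replicate 2 for Kmt2a and Kmt2e. Kmt2e overlaps Srpk2 on the opposite strand. Without Brd9 KO replicate 3 the log2 fold changes were 0.78 for Kmt2a, 0.60 for Kmt2d and 0.84 for Kmt2e, and all passed (adjusted p = 0.0208, 0.0726 and 0.0345 by edgeR).

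**Figure D2:**
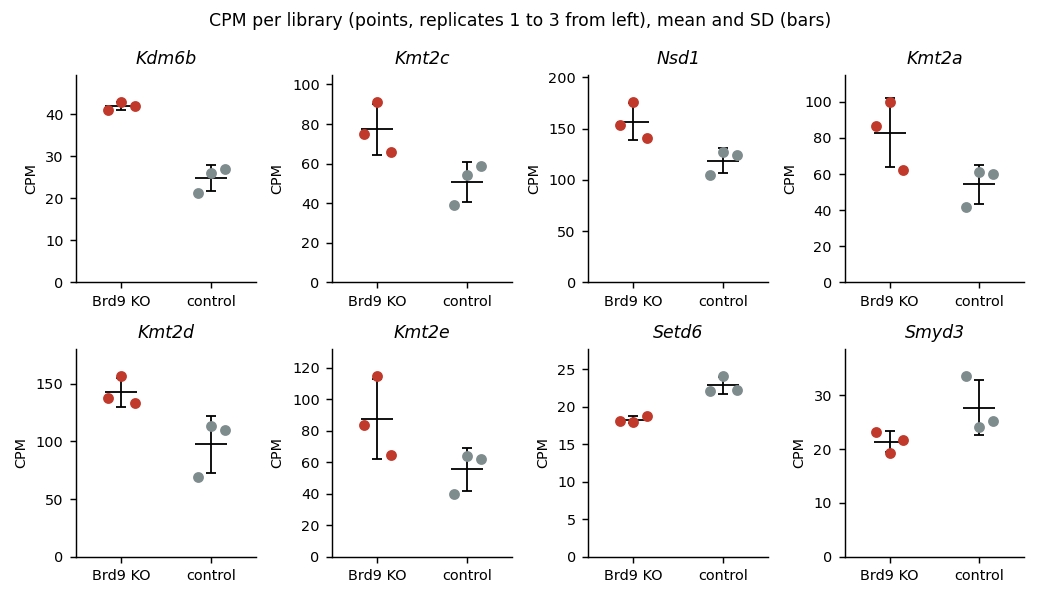
CPM of 8 members in each library (points, Brd9 KO left of control, replicates 1 to 3 from left to right in each group), with the mean and SD as bars. Kdm6b is at 41.0 to 43.0 CPM in all 3 Brd9 KO libraries, while the Brd9 KO points of the KMT2 genes spread, with replicate 3 nearest to control.

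The promoters of Kmt2c, Kmt2a and Kmt2d are shown because these genes had like fold changes without a length correction. For Kmt2e, whose fold change was alike too, no promoter sequence was available. The letters CCCTC are marked because they belong to the core motif of CTCF, a zinc finger protein whose binding the study also examined. Each window runs from 250 bases before to 50 bases after a RefSeq start (GRCm38.p6), and capitals mark CCCTC on either strand, written GAGGG where it lies on the other one.
Kmt2c, chr5:25498734-25499033, minus strand: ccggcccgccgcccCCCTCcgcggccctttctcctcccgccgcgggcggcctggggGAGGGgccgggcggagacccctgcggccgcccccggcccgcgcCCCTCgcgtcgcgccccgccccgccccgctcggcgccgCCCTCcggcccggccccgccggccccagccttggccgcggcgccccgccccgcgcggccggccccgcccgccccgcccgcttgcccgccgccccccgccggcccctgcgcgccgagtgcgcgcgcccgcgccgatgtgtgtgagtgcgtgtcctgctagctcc
Kmt2a, chr9:44881240-44881539, minus strand: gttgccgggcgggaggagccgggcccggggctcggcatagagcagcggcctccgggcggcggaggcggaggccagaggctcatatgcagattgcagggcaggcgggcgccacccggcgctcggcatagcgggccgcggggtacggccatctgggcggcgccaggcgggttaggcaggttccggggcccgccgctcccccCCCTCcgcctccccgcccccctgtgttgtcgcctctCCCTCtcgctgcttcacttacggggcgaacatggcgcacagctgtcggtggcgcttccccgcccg
Kmt2d, chr15:98871156-98871455, minus strand: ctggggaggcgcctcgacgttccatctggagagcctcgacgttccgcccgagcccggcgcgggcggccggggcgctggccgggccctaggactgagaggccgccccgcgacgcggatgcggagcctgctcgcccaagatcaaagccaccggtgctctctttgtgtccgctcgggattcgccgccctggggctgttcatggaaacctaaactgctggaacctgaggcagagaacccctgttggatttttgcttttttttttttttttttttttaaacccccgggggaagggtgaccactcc

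CCCTC occurred 4 times in the Kmt2c window, 2 times in the Kmt2a window and 0 times in the Kmt2d window. Over the 34 members with a window in the table, 68.9% of 45 windows held it on either strand, beside 66.0% of all 32851 windows, so the letters were about as frequent as elsewhere. The 3 windows were rich in G and C (88.0% in Kmt2c, 75.7% in Kmt2a and 62.7% in Kmt2d), where the median was 64.7% over member windows and 52.7% over all windows.

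The whole group of H3K4 writers had 10 tested members, with Kmt2c, Kmt2a and Kmt2d among them, and Kmt2e counted by its family. Of these 10, 8 lay above 0, with a median log2 fold change of 0.34 (5 of 10 and 0.02 with the length offset). The remaining members of the group changed less than these KMT2 genes. Setd1b, a catalytic subunit of the complex that methylates promoters, had the next largest value (0.40 ± 0.19, adjusted p = 0.223 by edgeR), followed by Kmt2b (0.28), Setd7 (0.14) and Setd1a (0.13), and the last 3 lay below the median of all genes of their length class (0.30, 0.22 and 0.19). The SMYD enzymes of this group, which also methylate proteins other than histones, lay below 0. Smyd2 had 53.8, 50.3 and 48.1 CPM in Brd9 KO libraries, against 60.0, 66.3 and 53.1 CPM in control libraries, a log2 fold change of -0.24 ± 0.11 (adjusted p = 0.212). Smyd3 had 23.2, 19.4 and 21.6 CPM in Brd9 KO libraries, against 33.6, 24.2 and 25.2 CPM in control libraries, and missed the threshold although the groups did not overlap (log2 fold change -0.37 ± 0.15, adjusted p = 0.166 by edgeR). Smyd1, a muscle enzyme, was at 0.11 CPM or less in all libraries.

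All 5 H3K36 writers lay above 0, between 0.11 and 0.49, without a length correction, whereas with transcript length as an offset 2 lay above 0 and 3 below (Setd2, Nsd1 and Whsc1). Nsd1, which places mono- and dimethylation on H3K36, had 154, 176 and 141 CPM in Brd9 KO libraries, against 105, 127 and 124 CPM in control libraries (log2 fold change 0.40 ± 0.13, SE, n = 3 each, adjusted p = 0.0926 by edgeR's quasi-likelihood test). The groups did not overlap, and the lowest Brd9 KO library was again replicate 3. Nsd1 lies at chr13:55209782-55318325 (mm10, plus strand), was called under 8 of 19 alternatives and came to -0.01 ± 0.09 once transcript length was entered in the fit. Whsc1 (Nsd2), the most abundant of these enzymes per length in the mean over the 6 libraries (28.7 TPM, with Whsc1l1 at 28.1 TPM and above it in replicate 3 of both groups), had 156, 169 and 133 CPM in Brd9 KO libraries and 130, 150 and 142 CPM in control libraries, groups that overlapped (0.11 ± 0.12, adjusted p = 0.568). Setd2, the enzyme of H3K36 trimethylation, stood at 0.25 ± 0.17, Whsc1l1 (Nsd3) at 0.26 ± 0.15 and Ash1l at 0.49 ± 0.26, none past the threshold.

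The H3K9 writers were the flattest of the larger groups: 2 of 6 were above 0 and 4 below, with a median log2 fold change of -0.04 and a range of -0.23 to 0.16, although on library-total scaling 4 of 6 and on TPM 5 of 6 were above 0. Ehmt2 (G9a), which makes H3K9 dimethylation in euchromatin, had 199.7, 204 and 182 CPM in Brd9 KO libraries, against 164, 193 and 168 CPM in control libraries (0.16 ± 0.11, adjusted p = 0.364 by edgeR). Suv39h1, which makes trimethylation at pericentromeric heterochromatin, was lower in each Brd9 KO library than in any control library (137 to 144 CPM in Brd9 KO libraries, 149 to 158 CPM in control libraries), with a log2 fold change of -0.11 ± 0.09 (adjusted p = 0.445). Ehmt1, the partner of Ehmt2, was at 0.05 ± 0.16, Setdb1, which silences retroelements, at -0.01 ± 0.13, Setdb2 at -0.07 ± 0.15 and Suv39h2 at -0.23 ± 0.16, all with overlapping groups. Setdb1 was the only member with expected counts that were not whole, which marks reads shared with another gene.

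Setd8 (Kmt5a), the enzyme of H4K20 monomethylation, was the most abundant member per length and was nearly flat. It had 179, 180.1 and 194 CPM in Brd9 KO libraries, against 183, 200.3 and 202 CPM in control libraries (log2 fold change -0.08 ± 0.10, adjusted p = 0.607 by edgeR), a sign that turned under library-total and TPM scaling. Dot1l, the H3K79 writer, varied more within the groups than between them, with 64.2, 78.4 and 27.7 CPM in Brd9 KO libraries and 26.4, 61.4 and 47.1 CPM in control libraries. Its log2 fold change was 0.34 ± 0.40 (adjusted p = 0.613), the largest SE among the members.

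Among SET proteins with mainly other or no settled histone substrates, 4 of 6 lay below 0, with a median log2 fold change of -0.17 (3 of 6 on library-total scaling and on TPM). Setd6, which methylates the NF-kappaB subunit RelA, had 18.1, 17.9 and 18.8 CPM in Brd9 KO libraries, against 22.1, 24.1 and 22.3 CPM in control libraries. The groups did not overlap and each was tight, Brd9 KO replicate 3 included, but the log2 fold change of -0.32 ± 0.11 lay just outside the threshold (adjusted p = 0.103 by edgeR). Setd3, an actin histidine methyltransferase, was flat at 117, 111 and 124 CPM in Brd9 KO libraries and 125, 123 and 125 CPM in control libraries (-0.08 ± 0.09, adjusted p = 0.584). Setd5 stood at 0.30 ± 0.17, Smyd4 at 0.03 ± 0.14, Smyd5 at -0.25 ± 0.20 and Setd4, with 3.86 to 7.15 CPM over the 6 libraries, at -0.28 ± 0.25, all with overlapping groups.

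Of the 12 tested erasers of the KDM1 to KDM5 families 10 lay above 0 (8 with the length offset). Called were 0 by edgeR, by DESeq2 and by limma-voom, and 0 had an unadjusted p under 0.05 in edgeR. Without Brd9 KO replicate 3, however, edgeR called Kdm1b, Kdm2a, Kdm3b, Kdm4a, Kdm4b and Kdm5a, all higher. In that fit 51.6% of the calls over all genes were higher. Kdm1a (LSD1), the H3K4 eraser that acts with Gfi1, was flat, with 95.2, 91.5 and 81.0 CPM in Brd9 KO libraries and 93.0, 94.0 and 88.7 CPM in control libraries (log2 fold change -0.04 ± 0.10, adjusted p = 0.816 by edgeR, above 0 on library-total and TPM scaling). Its paralog Kdm1b, known for its role in oocytes, stood at 0.35 ± 0.16 (adjusted p = 0.196). Kdm2b, which recruits a variant Polycomb complex to CpG islands, had 101, 110 and 77.5 CPM in Brd9 KO libraries and 88.4, 117 and 101 CPM in control libraries, overlapping throughout (-0.08 ± 0.16, adjusted p = 0.769, above 0 on library-total and TPM scaling). Kdm2a stood at 0.32 ± 0.15. The KDM3 erasers of H3K9 methylation were represented by Kdm3b at 135, 158 and 114 CPM in Brd9 KO libraries and 89.5, 119 and 116 CPM in control libraries (0.32 ± 0.16, adjusted p = 0.230), with Kdm3a at 0.19 ± 0.10.

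The KDM4 enzymes, which erase H3K9 and H3K36 trimethylation, lay close together at 0.22 (Kdm4a), 0.24 (Kdm4c) and 0.27 (Kdm4b). Kdm4a, the most abundant, had 85.6, 89.2 and 72.9 CPM in Brd9 KO libraries, against 63.1, 73.0 and 76.6 CPM in control libraries (adjusted p = 0.276 by edgeR), and Kdm4b did not overlap between groups (25.6 to 31.4 CPM in Brd9 KO libraries, 22.8 to 25.3 CPM in control libraries, adjusted p = 0.184). Kdm4d, mainly a testis gene, was at 0.26 CPM or less in all libraries. Of the KDM5 erasers of H3K4 methylation, the X-linked Kdm5c had 145, 172 and 125 CPM in Brd9 KO libraries and 106, 145 and 126 CPM in control libraries (0.23 ± 0.16, adjusted p = 0.372), with Kdm5b at 0.20 and Kdm5a at 0.40. Kdm5d, the Y-linked copy of Kdm5c, had a count of 0 in all 6 libraries, which allows up to 3 counts in each. The Y-linked genes Uty and Eif2s3y were at 0 too, Ddx3y was at 0.04 CPM in Brd9 KO replicate 1 and 0 elsewhere, and Xist was at 655 to 1052 CPM in Brd9 KO libraries and 460 to 705 CPM in control libraries.

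**Figure D3:**
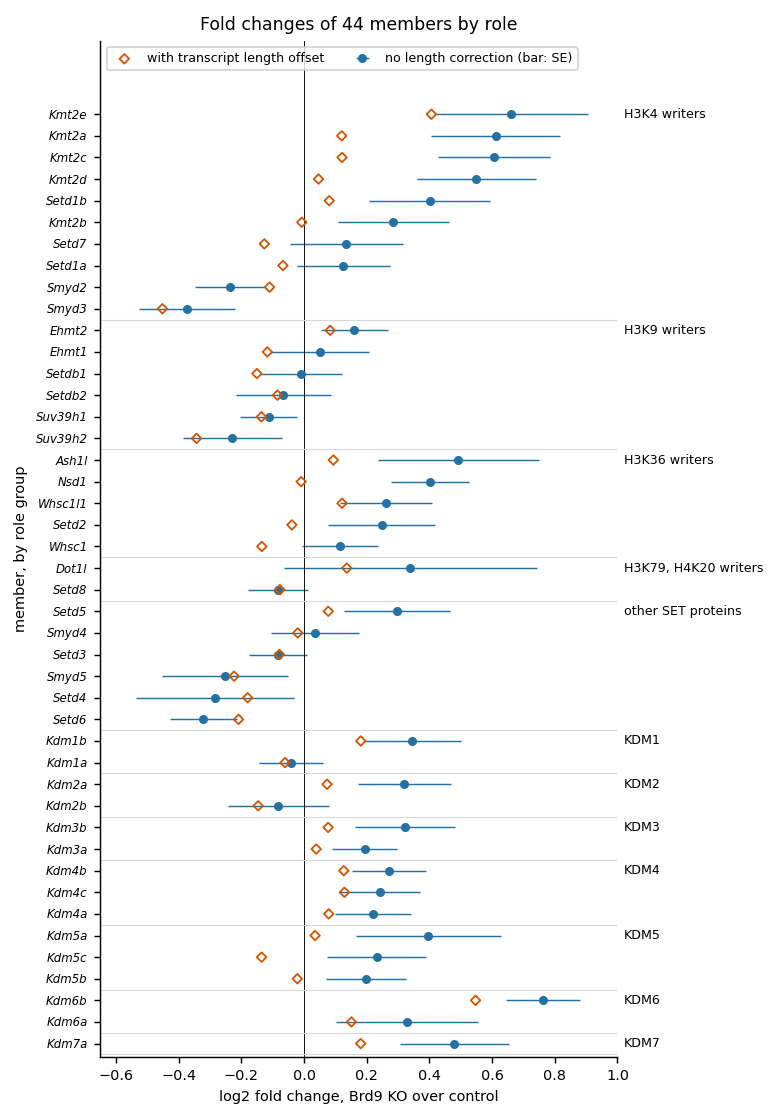
Log2 fold change (Brd9 KO over control) of the 44 tested members by role group, without a length correction (filled circles, bars are SE) and with transcript length entered as an offset (open diamonds). Kdm6b stays at 0.55 with the offset and Kmt2e at 0.41, while 10 members, Nsd1, Whsc1 and Kdm5c among them, move to below 0.

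Most members had long transcripts, although their lengths ran from 1605 to 19827 bases. The median length of the tested members was 5147 bases, against 2755 bases over all tested genes, and 38 of 44 were longer than that. Among the members the log2 fold change followed length, with a Spearman rho of 0.84 over 44 genes that share the same libraries, against 0.38 over all 12953 tested genes. Of the 19 members over 6000 bases, 19 lay above 0 with a median of 0.40, where all genes of that length had a median of 0.28. Of the 19 members from 3000 to 6000 bases, 12 lay above 0 with a median of 0.13 (all genes of that length 0.10), and of the 6 up to 3000 bases 0 lay above 0, with a median of -0.24 (all genes of that length -0.10). Counted against the median of all genes in their own length class, 20 of 44 members lay above it.

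The share of all genes called higher followed length as well. It was 2.28% up to 1000 bases and 25.5% over 10000 bases, where Kmt2a, Kmt2c, Kmt2d, Nsd1, Ash1l, Kdm5a and Kdm5c lie, and the share called lower was 9.22% and 1.56% in the same classes. Each library had its own slope. Genes over 8000 bases minus genes up to 1000 bases, as the difference of median log2 levels relative to the control mean, came to 0.69, 1.07 and 0.06 in Brd9 KO libraries, against -0.48, 0.34 and 0.15 in control libraries. The median of the 44 members was 0.22, 0.39 and -0.004 in Brd9 KO libraries and -0.18, 0.13 and 0.05 in control libraries. In both measures Brd9 KO replicate 2 was the highest library and control replicate 1 the lowest. Brd9 KO replicate 3 lay inside the range of the control libraries in both. Transcript length minus RSEM's effective length, which reflects the mean fragment length, was 203, 205 and 199.9 bases in Brd9 KO libraries and 198, 203 and 202 bases in control libraries, with the lowest value in control replicate 1 and the highest in Brd9 KO replicate 2. The part of fragment length in these slopes was not tested.

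**Figure D4:**
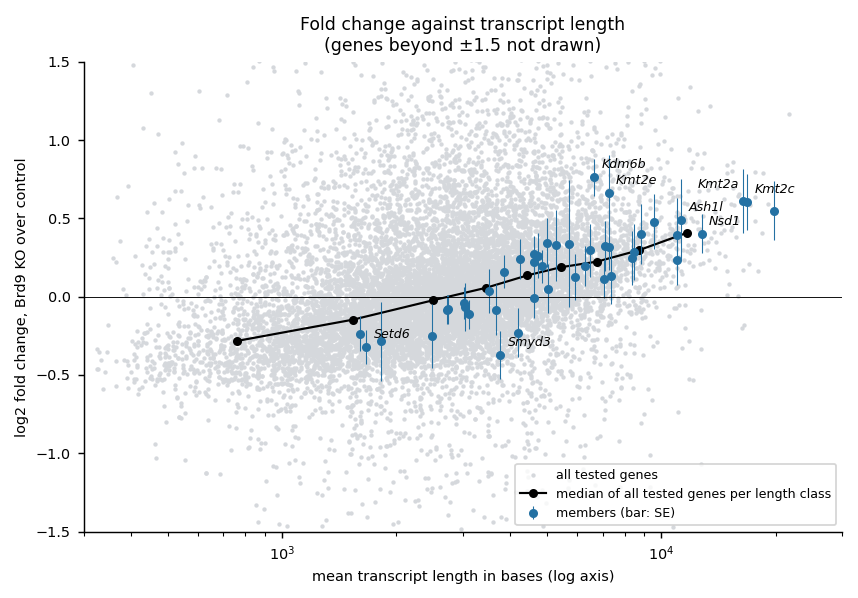
Log2 fold change (Brd9 KO over control) against mean transcript length in bases (log axis) for all tested genes (grey points), the median of all tested genes per length class (black line) and the 44 members (blue, bars are SE). Members climb with the black line, and Kdm6b and Kmt2e stand above it while Smyd3 stands below.

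A fit that entered each library's length curve as an offset was added after the data were seen. The curves were drawn from these same genes, so a rho near 0 over all genes (-0.01) follows from the method. Over the members a rho of 0.46 was left. Such an offset takes out any difference between the groups that goes with length, whatever its source. The members' median log2 fold change was then -0.01, with 21 of 44 above 0, and 2 members were called beside 2847 of all genes (22.0%). Kdm6b kept its call at 0.55 ± 0.11 (adjusted p = 0.0180 by edgeR). Kmt2e was called at 0.41 ± 0.14 (adjusted p = 0.0888). Kmt2c came to 0.12 ± 0.08 (adjusted p = 0.352), Kmt2a to 0.12 ± 0.07 (adjusted p = 0.266) and Kmt2d to 0.05 ± 0.11 (adjusted p = 0.812), none of them past the threshold. Of the members below 0, Setd6 came to -0.21 ± 0.11 (adjusted p = 0.241) and Smyd3 to -0.45 ± 0.17 (adjusted p = 0.127). With the offset and without Brd9 KO replicate 3, Kdm6b (0.43, adjusted p = 0.0149) and Kmt2e (0.49, adjusted p = 0.0436) were called.

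A second property of the transcripts, the mean length over isoforms weighted by their estimated share, differed between libraries for 11 tested members and did not overlap between groups for 3 of these (27.3%), against 294 of the 3694 tested genes whose length differed (7.96%). For Whsc1l1, which has a long form with the SET domain and a short form without it, it was 4799, 4895 and 4760 bases in Brd9 KO libraries, against 4513, 4659 and 4672 bases in control libraries. The other 2, Kdm4a and Setdb1, differed by less than 4 bases between any libraries. These lengths had no test.

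Levels between members were compared as TPM, which is scaled per length. The members together took 1073, 1242 and 779 TPM in Brd9 KO libraries and 669, 987 and 870.0 TPM in control libraries, groups that overlapped. Setd8 led with 103 ± 11.3 TPM in Brd9 KO libraries and 94.6 ± 15.1 TPM in control libraries (SD, n = 3 each) and was above the next member in all 6 libraries. It was followed by Ehmt2, with 76.7 ± 15 TPM in Brd9 KO libraries and 59.1 ± 11.1 TPM in control libraries, and by Suv39h1, with 69.5 ± 12 TPM in Brd9 KO libraries and 64.5 ± 9.08 TPM in control libraries. These neighbours, and Suv39h1 and Setd3 after them (66.0 ± 6.15 TPM for Setd3 in Brd9 KO libraries and 60.3 ± 6.61 TPM in control libraries), changed places between libraries. Setd3 was above Smyd2, and Smyd2 (51.7 ± 9.30 TPM in Brd9 KO libraries, 52.2 ± 9.53 TPM in control libraries) above Kdm1a (45.5 ± 9.63 TPM in Brd9 KO libraries, 40.0 ± 4.65 TPM in control libraries), in all 6 libraries. By the mean over the 6 libraries the lowest tested members were Setd4, Smyd4, Ash1l, Kdm1b and Kmt2c, the last with 6.73 ± 2.04 TPM in Brd9 KO libraries and 3.79 ± 1.09 TPM in control libraries.

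By role, summed TPM was highest for the H3K9 writers, with 205 ± 42.8 TPM in Brd9 KO libraries and 175 ± 30 TPM in control libraries (SD, n = 3 each). The H3K4 writers had 168 ± 43.4 TPM in Brd9 KO libraries and 134 ± 28.5 TPM in control libraries. The SET proteins with mainly other or no settled histone substrates had 148 ± 26.4 TPM in Brd9 KO libraries and 134 ± 21.9 TPM in control libraries, and were above the H3K4 writers in control replicate 1. Setd8 and Dot1l together had 119 ± 19.8 TPM in Brd9 KO libraries and 105 ± 19.9 TPM in control libraries. The H3K36 writers summed to 108 ± 29.0 TPM in Brd9 KO libraries and 78.9 ± 17.5 TPM in control libraries, and the KDM6 erasers to 24.6 ± 7.39 TPM in Brd9 KO libraries and 15.2 ± 4.35 TPM in control libraries. In each of these groups the 2 sets of libraries overlapped.

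**Figure D5:**
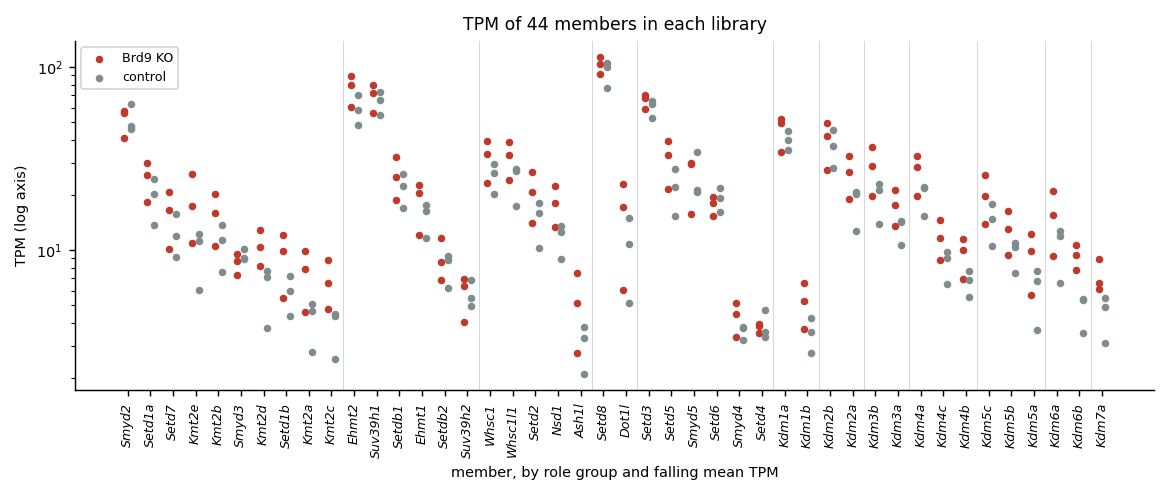
TPM (log axis) of the 44 tested members in each library (red points Brd9 KO, grey points control), by role group and falling mean within it. Setd8, Ehmt2 and Suv39h1 lie highest, Kmt2c and Kmt2a lowest among the H3K4 writers, and the red and grey points overlap for most members.

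Among related enzymes, partners and cofactor genes, from 7 lists, 14 of 71 tested genes were called (19.7%), 7 higher and 7 lower, beside 15.4% of all genes. Leaving out Brd9 KO replicate 3 gave 24 (33.8%), and leaving out any other library gave 1 to 3. Of 12 tested enzymes outside the symbol rule, 2 rose and 0 fell: Phf8, a JmjC eraser (51.3 to 60.5 CPM in Brd9 KO libraries, 40.8 to 45.1 CPM in control libraries, log2 fold change 0.37 ± 0.10, adjusted p = 0.0700 by edgeR), and Suv420h1, which writes H4K20 methylation after Setd8 (47.5 to 63.8 CPM in Brd9 KO libraries, 32.5 to 42.1 CPM in control libraries, 0.51 ± 0.15, adjusted p = 0.0762). Ezh1 and Ezh2, the H3K27 writers that Kdm6b opposes, were not called but did not overlap between groups, with Ezh1 at 39.1 to 41.6 CPM in Brd9 KO libraries, against 30.8 to 33.9 CPM in control libraries (0.29 ± 0.10, adjusted p = 0.102), and Ezh2 at 142 to 146 CPM in Brd9 KO libraries, against 160 to 171 CPM in control libraries (-0.21 ± 0.09, adjusted p = 0.186). They were singled out after their values were seen. Of 14 partners of the COMPASS and MLL enzymes 0 were called by edgeR, DESeq2 or limma-voom and 0 had an unadjusted p under 0.05 in edgeR. With the length offset 1 was called lower, and without Brd9 KO replicate 3 edgeR called 1 higher and 1 lower. Dpy30, the most abundant of the 14, had 62.8 to 87.2 CPM in Brd9 KO libraries and 83.8 to 108 CPM in control libraries (-0.32 ± 0.15, adjusted p = 0.218 by edgeR).

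Of the 6 genes listed as partners of Dot1l or of AF9, 2 rose and 1 fell. Aff4, the scaffold of the super elongation complex, had 72.0 to 109 CPM in Brd9 KO libraries, against 47.1 to 64.3 CPM in control libraries (log2 fold change 0.76 ± 0.18, adjusted p = 0.0420 by edgeR), and Mllt6 (AF17) had 41.5 to 45.5 CPM in Brd9 KO libraries, against 26.2 to 32.2 CPM in control libraries (0.54 ± 0.11, adjusted p = 0.0308). Mllt3 (AF9), a reader of histone acylation that keeps stem cells in self-renewal in human blood, had 28.8 to 30.8 CPM in Brd9 KO libraries, against 33.9 to 40.3 CPM in control libraries (-0.33 ± 0.11, adjusted p = 0.0978). Of 10 partners of Kdm1a, Phf21a (0.47 ± 0.10, adjusted p = 0.0350) and Rcor2 (0.65 ± 0.19, adjusted p = 0.0792) rose, and Gfi1, the repressor that brings Kdm1a to its targets, fell to 63.1, 72.9 and 81.6 CPM in Brd9 KO libraries, against 104, 114 and 94.9 CPM in control libraries (-0.53 ± 0.13, adjusted p = 0.0464). Of 9 readers of H3K9 methylation and Setdb1 partners 0 were called by edgeR (2 at an unadjusted p under 0.05) and by limma-voom. DESeq2 called 1 lower and the length offset 2 lower, while edgeR without Brd9 KO replicate 3 called 2 higher and 1 lower. The most abundant of the 9 was Cbx3, an HP1 protein (283 to 338 CPM in Brd9 KO libraries, 368 to 455 CPM in control libraries, -0.35 ± 0.12, adjusted p = 0.121 by edgeR).

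Of the 7 tested protein arginine methyltransferases 1 rose, Prmt2 (9.31 to 11.7 CPM in Brd9 KO libraries, 5.86 to 7.27 CPM in control libraries, log2 fold change 0.76 ± 0.17, adjusted p = 0.0398 by edgeR). Another list held 13 genes of methyl donor and alpha-ketoglutarate metabolism, not all of which supply these cofactors. Of these, 0 rose and 5 fell (38.5%), beside 6.25% of all genes called lower, with a median of -0.31. Of the 13, 10 had transcripts up to 3000 bases, and the share of all genes called lower was 10.5% from 1000 to 2000 bases and 7.05% from 2000 to 3000 bases. With the length offset 6 were called lower and the median was -0.23. Under library-total scaling, on TPM and on leaving out any 1 library other than Brd9 KO replicate 3, 0 were called (5 without Brd9 KO replicate 3), although the median stayed below 0 in each. Among the 13, Mat2b, a regulatory subunit of the enzyme that makes S-adenosylmethionine, had 105 to 123 CPM in Brd9 KO libraries, against 138 to 154 CPM in control libraries (-0.35 ± 0.10, adjusted p = 0.0809). Ahcy, which clears the product S-adenosylhomocysteine, had 205 to 265 CPM in Brd9 KO libraries, against 275 to 344 CPM in control libraries (-0.43 ± 0.14, adjusted p = 0.0925). With the length offset the log2 fold changes were -0.27 for Mat2b and -0.41 for Ahcy, and both were called. Of the partners and related enzymes, Aff4 (0.41), Mllt3 (-0.50), Suv420h1 (0.33), Rcor2 (0.73), Gfi1 (-0.51) and Prmt2 (0.83) were called with the offset too, but Mllt6 (0.31, adjusted p = 0.161), Phf21a (0.26, adjusted p = 0.200) and Phf8 (0.15, adjusted p = 0.246 by edgeR) were not. Of the 19 alternatives, Phf8 was called under 9, and Phf21a, Rcor2 and Suv420h1 under 11 each.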

How the data were processed

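Poly(A)-selected RNA of 3 Brd9 KO and 3 control libraries was sequenced. Reads were aligned to mm10, the build also listed by the submitters, with STAR and quantified with RSEM through nf-core/rnaseq, as the study's methods describe. The deposited tables give RSEM's expected count (estimated reads per gene), TPM, FPKM (not analysed here) and transcript lengths for each library. A stranded kit is named in the methods and unstranded libraries in the labels. The study calls the replicates biological, and the labels name no animals.

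Expected counts were rounded, filtered with filterByExpr, scaled by TMM and tested with edgeR 4.0.16 (quasi-likelihood, no covariate, R 4.3.3). Benjamini-Hochberg adjustment ran over 12953 genes, and genes under 0.1, the study's threshold, were called. SE was derived as the absolute log2 fold change over the square root of F. DESeq2, the study's tool, was run as an alternative (1.42.0), beside limma 3.58.1 on voom values and on log2(TPM + 1) or log2(TPM + 0.1). The fits were tested on simulated counts. No 2 libraries were copies of each other. Positions came from GENCODE M21 (mm10) and promoters from RefSeq (GRCm38.p6).

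The members and lists were chosen with earlier results of these data known. Named are Brd9, called members, the member of each role group with the highest TPM, untested members, Y-linked genes and Xist, and up to 3 called genes per partner list by p (or the most abundant), of which 1 is not reported here. The other named genes were chosen after their values were seen.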

Additional observations from a re-analysis of the deposited data

How the results depend on the processing

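The count of called members (3, all higher) was 3 under library-total scaling, a filter at 2 CPM, limma-voom and a robust fit, and 2 without a filter on low counts. RLE scaling added 1 member called lower, Setd6. DESeq2 called 8 (7 higher, 1 lower) and 1258 of all genes lower, with 54.0% of its calls over all genes higher. An adjusted p under 0.05 left 1 member, Kdm6b, called higher, and 1015 of all genes (672 higher, 343 lower). Library-total scaling left 489 genes called lower, so that 74.1% of calls were higher, against 59.5% with TMM. Of the deposited TPM, log2(TPM + 1) called 1 member (higher) and 224 genes lower, log2(TPM + 0.1) 1 and 215, and log2(TPM + 1) without a filter 1 and 202, with 1165 genes in all and between 82.7% and 84.0% of calls higher. The members' median log2 fold change was 0.41, 0.43 and 0.41 in these fits. Signs turned to above 0 for members near 0: under library-total scaling Kdm1a 0.049, Kdm2b 0.0091, Setd8 0.0020 and Setd3 0.0012, under log2(TPM + 1) with and without the filter Kdm1a 0.17, Kdm2b 0.091, Setd8 0.13 and Setd3 0.13, and under log2(TPM + 0.1) Kdm1a 0.17, Kdm2b 0.093, Setd8 0.13 and Setd3 0.13.

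Leaving out 1 library in turn gave between 1 and 17 called members (1 to 16 higher, 0 to 1 lower), between 641 and 4150 genes (462 to 2141 higher, 179 to 2009 lower) and a member median between 0.12 and 0.31. The 17 came without Brd9 KO replicate 3, and the other libraries gave 1, Kdm6b. Kdm2b ranged from -0.19 to 0.051 and was above 0 without control replicate 2 (0.023) or Brd9 KO replicate 3 (0.051), and Kdm1a from -0.086 to 0.022, above 0 without Brd9 KO replicate 3. The cause was not tested.

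The transcript length offset, chosen after seeing the data, called 1304 genes lower, gave a member median of -0.0083 and turned 10 members to below 0: Nsd1 (-0.0093), Whsc1 (-0.13), Kdm5c (-0.14), Setd2 (-0.039), Setd1a (-0.067), Setd7 (-0.13), Kmt2b (-0.0073), Kdm5b (-0.021), Ehmt1 (-0.12) and Smyd4 (-0.020). With Brd9 KO replicate 3 left out as well it called 3422 genes (1663 lower), gave a member median of -0.016 and, of the genes followed, turned Nsd1 (-0.083), Whsc1 (-0.15), Kdm5c (-0.16), Kdm7a (-0.036), Kmt2d (-0.085) and the COMPASS subunit Dpy30 (0.0073). With the replicate number as a block, 7 members were called, all higher, where 61.9% of calls over all genes were higher. Libraries of the same number correlated at -0.09, 0.47 and 0.02 in their deviations from the group means. The value of 0.47, for replicate 2 of both groups, was the highest of all pairs. Brd9 KO replicate 1 correlated best with control replicate 2 (0.19), and Brd9 KO replicate 3 with control replicate 1 (0.38). Deviations from a mean of 3 libraries depend on each other, so these values cannot decide whether the numbers pair the samples. Brd9 was called under all 19 alternatives. With 3 libraries a group, differences near the SE of most members (0.09 to 0.25) could not be told from 0.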
